A study of Mus musculus with 9 samples.

Results

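The 44 genes described here code for collagens, other proteins of the extracellular matrix, the enzymes that cross-link, cut or protect it, and proteins of hepatic stellate cells and myofibroblasts. They were taken by symbol from a table of gene counts of mouse liver that holds 24411 genes, and all 44 were found there. Of these, 41 passed the filter on low counts and were tested together with 11199 genes in all, and Col12a1, Lox and Timp1 did not pass. RNA came from 9 livers of C57BL/6 mice at 3 months of age, with 3 livers per genotype. All 9 mice carried floxed Atg7 alleles, Atg7 being an enzyme needed to form autophagosomes. The group cont. (Atg7flox/flox) had no Cre recombinase. The group Atg7-KO (Atg7flox/flox;Alb-Cre) had Cre under the albumin promoter, which is active in hepatocytes, so that the gene was deleted there and not by design in stellate cells or other cells. The group S351A had the same floxed alleles and Alb-Cre and, in addition, a p62 allele with alanine in place of a serine on both copies (p62S351A/p62S351A). In 2 of the 3 S351A libraries the genotype entry of the labels gives a different residue number from the title, and the titles were followed. No library was stated to be pooled from several animals.

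The extracellular matrix of the liver lies mainly around portal tracts and as a thin layer in the space between hepatocytes and sinusoids. Stellate cells sit in that space, store vitamin A as retinyl esters in the healthy liver, and after injury can turn into myofibroblasts that make fibrillar collagen, driven by TGF-β and PDGF. Portal fibroblasts are another source of collagen, and collagen chains are hydroxylated, assembled, trimmed and cross-linked by separate sets of enzymes. In bulk liver RNA, a change in the number of cells of a type and a change in RNA per cell cannot be told apart.

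Matrix genes were higher in livers without hepatocyte Atg7, with or without the p62 mutation, and Col1a1 and Col1a2 had the highest log2 fold changes of the 41 tested genes in both groups against cont. Of the 41 tested genes, 32 were called higher in Atg7-KO than in cont. (adjusted p under 0.05 and fold above 1.5 in edgeR's quasi-likelihood test), against 19.9% of all genes tested. Only Col18a1 was called lower, against 18.1% of all genes. In S351A against cont. 30 were called higher and Col18a1 again lower, where the percentages over all genes were 15.6% and 13%. Between S351A and Atg7-KO none of the 41 was called, and of all genes tested 0% were called higher and 0.00893% lower. Every Atg7-KO library lay above every cont. library for 35 genes (26.7% of all genes tested) and below for 1 (24.9%), and every S351A library above cont. for 30 (19.6%) and below for 1 (18.4%). An F test over the 3 groups called 33 members at an adjusted p under 0.05, against 35.1% of all genes. The median log2 fold change of the 41 genes was 1.67 in Atg7-KO against cont., 1.78 in S351A against cont. and -0.12 in S351A against Atg7-KO, beside -0.03, -0.03 and 0.01 over all genes tested. The first 2 of these comparisons share the cont. libraries.

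Together the 44 genes made up 0.197% ± 0.0246 (SD, n = 3) of the counts of cont. livers, against 0.485% ± 0.0596 for Atg7-KO and 0.435% ± 0.0486 for S351A. Fn1 and Col18a1, which hepatocytes also express, made up most of the cont. share, and without them the shares were 0.0665% ± 0.0202, 0.345% ± 0.0544 and 0.299% ± 0.0533. Col1a1, Col1a2 and Col3a1 together took 0.00427% ± 0.00159, 0.0844% ± 0.00897 and 0.0567% ± 0.00947 of the counts. In single libraries, the median log2 level of the tested genes relative to cont. ran from -0.30 to 0.15 among cont. livers, from 1.43 to 1.73 among Atg7-KO livers and from 1.22 to 1.82 among S351A livers. The groups with Cre therefore did not overlap with cont. but overlapped with each other.

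**Figure D1:**
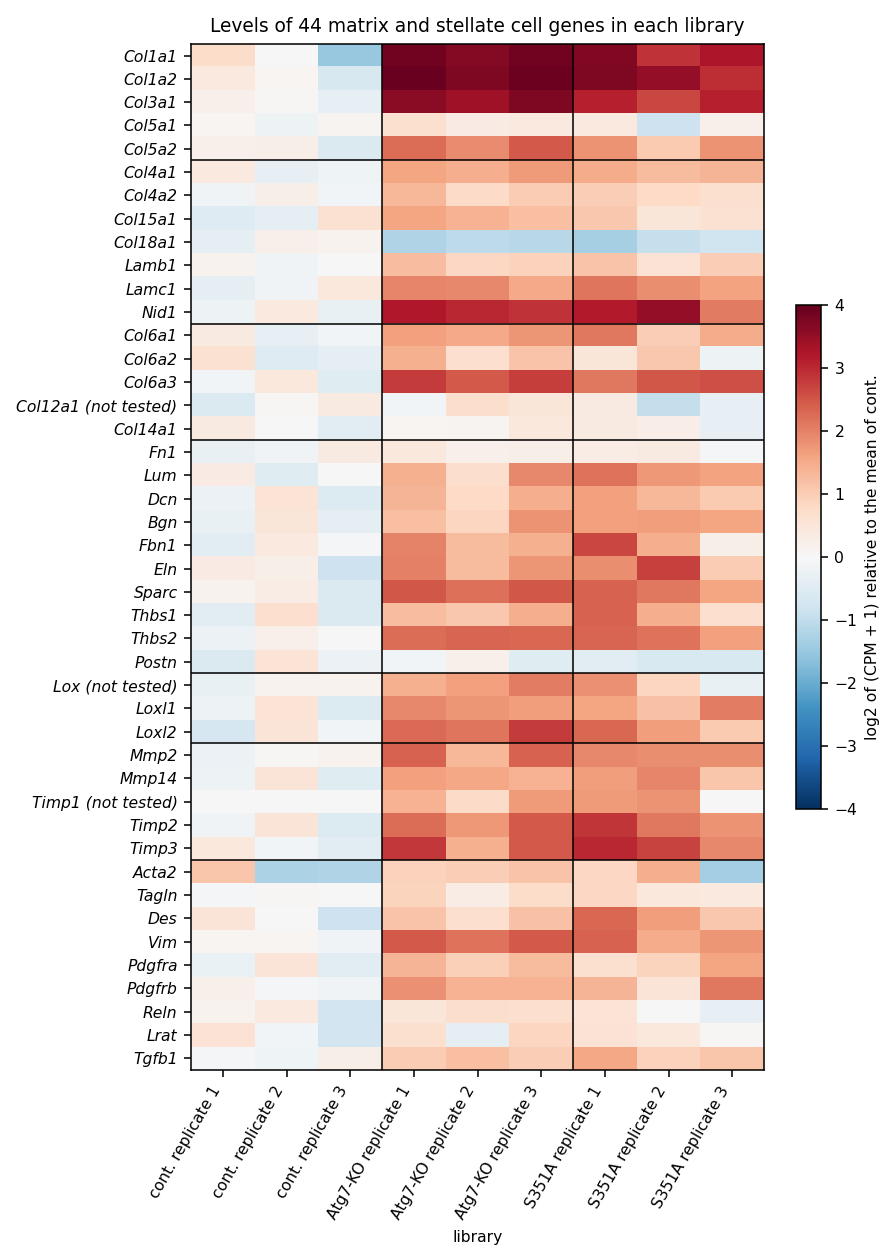
Rows are the 44 genes in 7 role groups separated by lines and columns are the 9 libraries. Colour is the log2 of CPM (counts relative to library size, scaled by TMM) plus 1, relative to the mean of cont., with red higher and blue lower. Most rows are red in all 6 libraries with Cre, Col18a1 is blue there, and the 3 genes marked as not tested had too few counts.

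Library totals were between 713835 and 15426566 counts. The S351A libraries were the 3 smallest, with at most 792366 counts, so that depth and genotype cannot be told apart for that group. Atg7 itself was at 44.8, 57.3 and 42.1 CPM in the cont. livers, 29.9, 27.8 and 28.2 CPM in the Atg7-KO livers and 21.7, 24.7 and 22.1 CPM in the S351A livers, with all 6 libraries with Cre below the cont. libraries. It was called lower in Atg7-KO and in S351A than in cont. (log2 fold changes -0.74 and -1.07). Scaled by total library size these were -0.21 and -0.59 and not past the threshold, and the former was also not past it without the 20 most counted genes (-0.31). Within groups, log2 CPM of all genes tested correlated between libraries with r from 0.882 to 0.974 across genes, which are not independent replicates. Sex was read from Xist and Y-linked genes as 1 female and 2 males in cont. and as 2 females and 1 male in each other group. Among the 41 tested genes, Atg7-KO replicate 2 was the lowest of its group for 29, S351A replicate 3 for 26 and cont. replicate 3 for 22, and S351A replicate 1 was the highest of its group for 28.

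The promoters of some of these genes are shown before their levels, since members that were higher together can be set beside one that was not called. RefSeq (GRCm38.p6) gave promoter windows for 28 of the 44 genes, 31 windows in all, each from 250 bases before to 50 after the RefSeq start of transcription, which need not be the start of the GENCODE gene whose position is given with the levels. The 250 bases before the start are printed for Col1a2, Col3a1 and Vim, which were higher together, and for Acta2, which was not called. Capitals mark words found by the search described after the sequences.
Col1a2, chr6:4505368-4505617, + strand: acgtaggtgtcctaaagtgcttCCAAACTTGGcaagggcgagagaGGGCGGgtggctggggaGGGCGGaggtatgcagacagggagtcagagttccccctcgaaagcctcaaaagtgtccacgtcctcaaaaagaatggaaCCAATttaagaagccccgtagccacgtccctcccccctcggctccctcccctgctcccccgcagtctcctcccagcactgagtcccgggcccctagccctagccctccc
Col3a1, chr1:45311288-45311537, + strand: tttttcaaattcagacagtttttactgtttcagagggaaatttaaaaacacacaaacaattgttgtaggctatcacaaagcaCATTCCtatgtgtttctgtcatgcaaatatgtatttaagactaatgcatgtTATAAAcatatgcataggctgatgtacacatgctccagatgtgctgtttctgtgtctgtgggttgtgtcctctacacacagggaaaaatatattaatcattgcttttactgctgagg
Vim, chr2:13574061-13574310, + strand: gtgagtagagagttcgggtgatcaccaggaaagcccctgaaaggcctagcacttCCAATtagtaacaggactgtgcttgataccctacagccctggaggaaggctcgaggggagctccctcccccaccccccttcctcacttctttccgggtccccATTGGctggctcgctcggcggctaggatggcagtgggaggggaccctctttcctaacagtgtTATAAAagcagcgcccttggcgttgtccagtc
Acta2, chr19:34255374-34255623, - strand: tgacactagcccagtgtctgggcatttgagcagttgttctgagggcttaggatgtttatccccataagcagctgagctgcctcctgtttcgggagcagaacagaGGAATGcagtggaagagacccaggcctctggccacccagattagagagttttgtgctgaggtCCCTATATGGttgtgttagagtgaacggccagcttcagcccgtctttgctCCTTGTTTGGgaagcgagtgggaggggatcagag

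Both strands of every window were searched for fixed words, and overlaps between words were allowed. The CCAAT box (CCAAT) was found in 13 of the 31 windows and in 37.4% of all 32841 windows of that length, and the GC box (GGGCGG) in 19 windows and 35.7% of all. The TATA box (TATAAA) was found in 4 windows, those of Col3a1, Postn, Thbs2 and Vim, and in 13.6% of all windows. A TEAD word (GGAATG) was in 7 windows and 14.7% of all, an antioxidant response element (TGACNNNGC) in 5 and 12.4%, an AP-1 word (TGANTCA) in 1, that of Col6a1, and 7.81%, and the palindromic SMAD box (GTCTAGAC) in none and 0.213%. The CArG box, the element bound by serum response factor in smooth muscle genes, was in none of the 31 windows and in 1.63% of all. With 1 mismatch, a version chosen after the windows had been seen, it was in windows of Acta2, Col1a2, Col6a3, Lamb1, Lrat, Mmp14 and Timp3, and in 8.49% of all windows. Counting from 0 at the first transcribed base, the Acta2 window held it at -84 (CCCTATATGG) and at -34 (CCTTGTTTGG), with the TEAD word at -146. Vim had its TATA box at -32, and Col1a2 had GC boxes at -205 and -188 and a CCAAT box at -109. A match is a description of letters and says nothing of binding.

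Fibrillar collagens, the chains of the thick fibres that accumulate in scarred liver, had the largest median log2 fold change of the 7 groups in Atg7-KO, 3.65. Of these 5 genes 4 were called higher there, beside 19.9% of all genes. Col1a1 (chromosome 11, 94936224 to 94953042, + strand of mm10) codes for the main chain of type I collagen. Col1a1 stood at 10.1, 5.59 and 1.33 CPM in the cont. livers, 96.7, 84.1 and 96.3 CPM in the Atg7-KO livers and 86.7, 48.1 and 61.3 CPM in the S351A livers. All 6 libraries with Cre were above all cont. libraries, and the cont. values rest on 16, 16 and 15 counts. The log2 fold change was 4.44 (SE 0.51, adjusted p 4.97e-05) in Atg7-KO and 3.95 (SE 0.53, adjusted p 3.02e-04) in S351A against cont., which are 21.8-fold and 15.4-fold. Without cont. replicate 3 these log2 values were 3.62 and 3.12, and without cont. replicate 1 they were 5.07 and 4.57.

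Col1a2 (chromosome 6, 4504814 to 4541544, + strand), the partner chain of Col1a1, was at 25.9, 21.0 and 12.3 CPM in the cont. livers, 318, 276 and 309.9 CPM in the Atg7-KO livers and 276, 235 and 159 CPM in the S351A livers. It was 15.8-fold higher in Atg7-KO than in cont. (log2 fold change 3.98, SE 0.32, adjusted p 4.30e-06) and 11.7-fold higher in S351A. Col3a1 (chromosome 1, 45311538 to 45349706, + strand), which forms the type III collagen of reticulin fibres, was at 32.2, 28.7 and 22.0 CPM in the cont. livers, 347, 299.7 and 382 CPM in the Atg7-KO livers and 246, 181 and 244 CPM in the S351A livers. The cont. libraries lay far below all others, and the 3 S351A libraries lay below the 3 Atg7-KO libraries for both genes. The log2 fold change of Col3a1 was 3.65 (SE 0.25, adjusted p 1.69e-06) in Atg7-KO and 3.04 (SE 0.25, adjusted p 9.64e-06) in S351A against cont.

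Type V collagen sits inside type I fibres, and of its chains Col5a2 was called and Col5a1 was not. Col5a2, which lies beside Col3a1 on chromosome 1 (45374321 to 45503282), was at 5.05, 5.24 and 2.49 CPM in the cont. livers, 23.7, 18.5 and 27.7 CPM in the Atg7-KO livers and 17.1, 9.86 and 17.2 CPM in the S351A livers, with no overlap between cont. and the other groups. It was called higher in Atg7-KO (2.61, SE 0.35, adjusted p 1.31e-04) and in S351A (1.96, SE 0.40, adjusted p 0.00386). Col5a1, the partner chain, was at 14.5, 11.9 and 15 CPM in the cont. livers, 22.3, 17.5 and 18.6 CPM in the Atg7-KO livers and 18.3, 7.40 and 15.9 CPM in the S351A livers and was not called in either comparison (log2 fold changes 0.49 and 0.00, adjusted p 0.158 and 0.993). Col5a1 was called higher in Atg7-KO when scaled by total library size (1.05) or without the 20 most counted genes (0.94). The ratio of Col5a1 to Col5a2 counts per kilobase of exon averaged 4.21 ± 2.29 for cont. (range 2.56 to 6.82), 0.963 ± 0.176 for Atg7-KO (0.759 to 1.06) and 1.03 ± 0.179 for S351A (0.847 to 1.20; SD, n = 3 each). The cont. ratios did not overlap with those of either other group. A ratio within a library does not depend on the scaling.

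The other chain ratios overlapped between groups. Col1a1 to Col1a2 gave 0.483 ± 0.267 for cont., 0.581 ± 0.0069 for Atg7-KO and 0.570 ± 0.172 for S351A, and Col4a1 to Col4a2 was 1.17 ± 0.453, 1.67 ± 0.285 and 1.68 ± 0.166. Col3a1 to Col1a1 was 5.52 ± 4.80, 2.48 ± 0.152 and 2.36 ± 0.405, with the highest value of 11.0 in cont. replicate 3, where Col1a1 was lowest. Col6a1 to Col6a2 was 5.94 ± 1.65, 7.27 ± 1.79 and 13.2 ± 7.72, the last with 2 to 6 counts of Col6a2 per library. The smallest two-sided p of an exact permutation test of 3 libraries against 3 is 0.1, and the ratios are given as descriptions without a test.

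**Figure D2:**
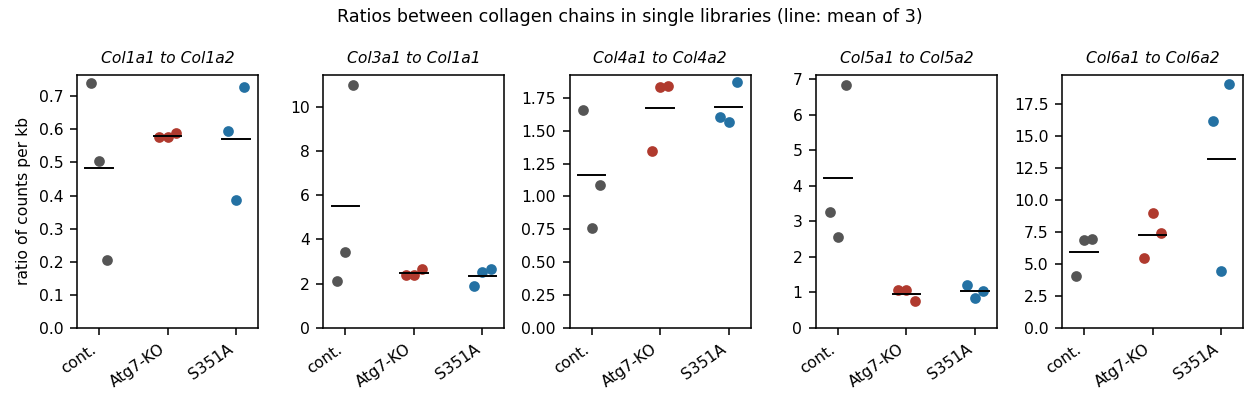
Each panel is a ratio of counts per kilobase of exon between 2 collagen genes, on a linear axis from 0, with points for single libraries and lines for the mean of 3. The Col5a1 to Col5a2 ratio is between 2.56 and 6.82 in cont. and between 0.759 and 1.20 in all libraries with Cre, while the other ratios overlap.

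Basement membrane genes code for the sheet-forming matrix under epithelia and endothelia. In Atg7-KO, 6 of 7 were called higher and 1 lower (median 1.37), beside 19.9% and 18.1% of all genes. In S351A 5 were called higher, or 3 without S351A replicate 1, and 1 lower, beside 15.6% and 13% of all genes. With at least 10 counts in every library 2 were called higher in each group. Nid1 (chromosome 13, 13437551 to 13512269, + strand), the nidogen that links laminin to type IV collagen, was at 5.05, 8.04 and 4.63 CPM in the cont. livers, 62.4, 55.2 and 50.4 CPM in the Atg7-KO livers and 61.6, 77.7 and 28.2 CPM in the S351A livers. It was 9.77-fold higher in Atg7-KO (3.29, SE 0.34, adjusted p 2.65e-05) and 9.71-fold higher in S351A (3.28, SE 0.36, adjusted p 7.60e-05), with every library with Cre above every cont. library. Lamc1, the gamma chain of most laminins, was at 5.68, 6.99 and 10.9 CPM in the cont. livers, 32.9, 32.4 and 24.5 CPM in the Atg7-KO livers and 37.6, 30.8 and 25.7 CPM in the S351A livers, and its log2 fold changes were 1.82 (SE 0.26, adjusted p 2.37e-04) and 1.88 (SE 0.29, adjusted p 6.54e-04). Lamb1, the laminin beta chain, was called in both comparisons (1.13 and 1.04), from 8 to 13 counts per S351A library. The S351A call was lost without cont. replicate 2 or 3 or S351A replicate 1 or 3 (log2 fold changes 0.97, 1.04, 0.90 and 0.98), and with no filter (0.93).

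Col4a1 and Col4a2 form the common type IV collagen and are transcribed from neighbouring starts in opposite directions on chromosome 8. Col4a1 was at 35.4, 21.0 and 23.4 CPM in the cont. livers, 82.0, 74.5 and 89.5 CPM in the Atg7-KO livers and 76.4, 65.3 and 69.8 CPM in the S351A livers, without overlap between cont. and either other group. Its log2 fold changes were 1.66 (SE 0.22, adjusted p 1.20e-04) and 1.44 (SE 0.23, adjusted p 7.55e-04), and those of Col4a2 were 1.10 (SE 0.21, adjusted p 0.00163) and 0.85 (SE 0.23, adjusted p 0.0178). The Col4a2 call in S351A was lost without cont. replicate 3 (0.75) or S351A replicate 1 or 2 (0.74 and 0.83). Col15a1, a collagen at the outer face of basement membranes, was at 5.05, 5.59 and 12.2 CPM in the cont. livers, 24.9, 21.7 and 18.6 CPM in the Atg7-KO livers and 17.1, 11.1 and 12.3 CPM in the S351A livers. It was called in Atg7-KO (1.37, SE 0.32, adjusted p 0.00500) and not in S351A against cont. (0.68, adjusted p 0.211), where cont. replicate 3 lay above S351A replicate 2. Without that library the log2 fold changes were 2.01 and 1.31 and both were past the threshold, as was the S351A change when scaled by total library size (1.20) or without the 20 most counted genes (1.09).

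Col18a1 (chromosome 10, 77052178 to 77166548, - strand), the source of endostatin, went the other way. It was at 796, 1199.5 and 1158 CPM in the cont. livers, 452, 512 and 488 CPM in the Atg7-KO livers and 419, 552 and 599 CPM in the S351A livers, so that all 6 libraries with Cre lay below the cont. libraries. The log2 fold changes were -1.12 (SE 0.24, adjusted p 0.00324) in Atg7-KO and -1.01 (SE 0.24, adjusted p 0.00896) in S351A. Per kilobase of exon it had the highest level of the 44 genes in cont. (149.7 CPM, against 52.0 for Fn1 and 49.6 for Dcn). In Atg7-KO the order of these levels was Dcn (117), Sparc (96.9), Col18a1 (68.9) and Fn1 (63.4). The Col18a1 call changed with the scaling. Scaled by total library size its log2 fold changes were -0.58 and -0.52 and neither was past the threshold, and the S351A change was also not past it without the 20 most counted genes (-0.61) or with only the 6 compared libraries in the fit (-0.93).

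**Figure D3:**
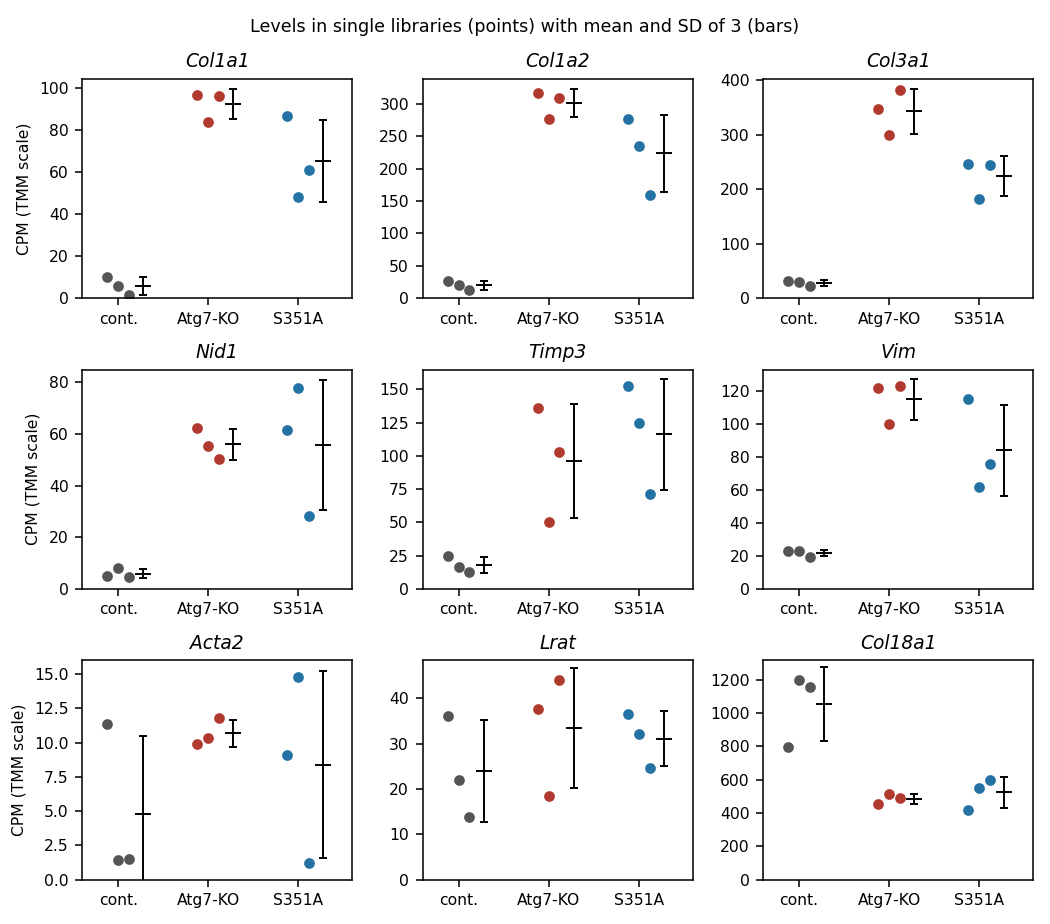
Each panel shows 1 gene, with CPM on the TMM scale from 0 on the y axis, points for the 3 libraries of each group and a bar for the mean ± SD to their right (the SD of Acta2 in cont. runs below 0 and is cut at the axis). Col1a1, Col1a2, Col3a1, Nid1, Timp3 and Vim are higher in all 6 libraries with Cre, Col18a1 is lower in them, and Acta2 and Lrat overlap between the groups.

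Type VI collagen forms beaded filaments around cells, and its 3 chains were all called higher in Atg7-KO, beside 19.9% of all genes. Col6a3 was at 10.7, 16.1 and 8.09 CPM in the cont. livers, 85.9, 68.4 and 84.5 CPM in the Atg7-KO livers and 53.6, 69.0 and 74.7 CPM in the S351A livers, and Col6a1 at 10.7, 6.29 and 7.47 CPM in the cont. livers, 27.6, 25.3 and 30.0 CPM in the Atg7-KO livers and 38.8, 17.3 and 24.5 CPM in the S351A livers. Neither gene overlapped between cont. and the groups with Cre. The log2 fold changes were 2.82 (SE 0.27, adjusted p 1.24e-05) and 2.54 (SE 0.28, adjusted p 7.26e-05) for Col6a3 and 1.81 (SE 0.29, adjusted p 4.43e-04) and 1.78 (SE 0.32, adjusted p 0.00172) for Col6a1, each in Atg7-KO and then in S351A against cont. Col6a2 was low, at 5.05, 1.75 and 2.05 CPM in the cont. livers, 9.67, 5.35 and 7.72 CPM in the Atg7-KO livers and 4.56, 7.40 and 2.45 CPM in the S351A livers. It was called in Atg7-KO (1.58, SE 0.46, adjusted p 0.0167) and not in S351A (0.91, adjusted p 0.281), and the Atg7-KO call was lost without cont. replicate 3 (1.30) or Atg7-KO replicate 1 or 3 (1.31 and 1.53). Col14a1, a collagen bound to the surface of type I fibres, was at 23.3 to 42.3 CPM in the cont. livers, 34.6 to 43.6 CPM in the Atg7-KO livers and 25.7 to 42.2 CPM in the S351A livers and was not called (0.25, 95% interval -0.29 to 0.79 in Atg7-KO and 0.18, 95% interval -0.42 to 0.77 in S351A). Its S351A value turned to -0.05 without cont. replicate 3, and with total library size it was called higher in Atg7-KO (0.77). Col12a1, of the same class, had 3, 10 and 51 counts in cont., 13, 17 and 11 in Atg7-KO and 4, 1 and 2 in S351A and was not tested.

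Among 10 glycoproteins, proteoglycans and proteins of elastic fibres, 8 were called higher in Atg7-KO and 8 in S351A (medians 1.77 and 2.07), beside 19.9% and 15.6% of all genes. With at least 10 counts in every library 3 were called higher in each group. Thbs2, a thrombospondin made by mesenchymal cells, was at 1.26, 2.10 and 1.69 CPM in the cont. livers, 11.7, 12.5 and 12.3 CPM in the Atg7-KO livers and 12.5, 11.1 and 7.35 CPM in the S351A livers. The cont. libraries held 2, 6 and 19 counts of it, and no library with Cre fell to the cont. range. Its log2 fold changes were 2.79 (SE 0.33, adjusted p 6.57e-05) and 2.56 (SE 0.39, adjusted p 6.23e-04). Sparc, a collagen-binding protein that takes part in fibre assembly, was at 75.1, 85.0 and 46.0 CPM in the cont. livers, 392, 317 and 393 CPM in the Atg7-KO livers and 358, 302 and 208 CPM in the S351A livers, again without overlap. It was 5.38-fold higher in Atg7-KO (2.43, SE 0.29, adjusted p 6.16e-05) and 4.24-fold in S351A (2.08, SE 0.29, adjusted p 3.53e-04).

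Eln, the core protein of elastic fibres, was at 5.68, 5.24 and 1.96 CPM in the cont. livers, 20.3, 11.8 and 16.8 CPM in the Atg7-KO livers and 18.3, 34.5 and 9.80 CPM in the S351A livers and was called in both comparisons (2.17, SE 0.48, adjusted p 0.00370 and 2.51, SE 0.53, adjusted p 0.00426). Without cont. replicate 3 its log2 fold changes were 1.58 and 1.92, and without S351A replicate 2 the S351A value was 1.91. Fbn1, the microfibril protein fibrillin, was at 1.89 to 4.20 CPM in the cont. livers, 8.55 to 14.5 CPM in the Atg7-KO livers and 3.68 to 24.0 CPM in the S351A livers (1.86, SE 0.50, adjusted p 0.0105 and 2.06, SE 0.56, adjusted p 0.0167), and S351A replicate 3 with 3 counts lay within the cont. range. Its call was lost in Atg7-KO without Atg7-KO replicate 1 (1.57), and in S351A without cont. replicate 3 (1.91) or S351A replicate 1 (1.15). An exon of Fbn1 overlaps Gm9913 on the opposite strand, and the strand setting of the counting was not stated, so reads of such pairs may not be told apart. Thbs1, an activator of latent TGF-β, was low at 0.631, 2.45 and 0.445 CPM in the cont. livers, 4.15, 3.56 and 5.00 CPM in the Atg7-KO livers and 10.3, 4.93 and 2.45 CPM in the S351A livers, from 1 to 18 counts per library. It was called at 2.07 (SE 0.65, adjusted p 0.0238) and 2.57 (SE 0.75, adjusted p 0.0223), but the Atg7-KO call was lost without cont. replicate 1 or 3 (1.95 and 1.23) or any 1 Atg7-KO library (2.04, 2.13 and 1.89), and the S351A call without cont. replicate 3 (1.73) or S351A replicate 1 or 2 (1.85 and 2.63). Without cont. replicate 2 its log2 fold changes were 3.03 and 3.52.

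The small leucine-rich proteoglycans, which bind collagen fibres, were called higher in both comparisons. Dcn was at 196 to 424 CPM in the cont. livers, 504 to 800.1 CPM in the Atg7-KO livers and 599 to 906 CPM in the S351A livers (1.24, SE 0.32, adjusted p 0.00812 in Atg7-KO and 1.36, SE 0.32, adjusted p 0.00733 in S351A). Bgn was at 36.1 to 66.8 CPM in the cont. livers, 85.5 to 167 CPM in the Atg7-KO livers and 142 to 150.4 CPM in the S351A livers (1.36 and 1.65), and Lum at 2.45 to 5.05 CPM in the cont. livers, 6.77 to 17.3 CPM in the Atg7-KO livers and 13.5 to 20.5 CPM in the S351A livers (1.67 and 2.14). None of them overlapped between cont. and the groups with Cre.

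Fn1 and Postn were the genes of this group that were not called. Fn1, the fibronectin that hepatocytes secrete into plasma and other cells lay down in tissue, was at 494, 557 and 773 CPM in the cont. livers, 817, 694 and 712 CPM in the Atg7-KO livers and 746, 783 and 591 CPM in the S351A livers, with overlap between all groups and log2 fold changes of 0.28 (95% interval -0.24 to 0.81) and 0.22 (95% interval -0.31 to 0.74). With total library size it was called higher in both (0.83 and 0.71), and without the 20 most counted genes in Atg7-KO (0.72). Postn, a protein of fibroblasts in scars, was at 5.05, 12.2 and 6.67 CPM in the cont. livers, 7.37, 9.27 and 5.45 CPM in the Atg7-KO livers and 5.70, 4.93 and 4.90 CPM in the S351A livers. Its log2 fold changes were -0.12 (95% interval -0.90 to 0.67) in Atg7-KO and -0.63 (95% interval -1.65 to 0.39) in S351A, with 4 or 5 counts in each S351A library. The sign in Atg7-KO turned with the scaling (0.43 with total library size, 0.32 without the 20 most counted genes) and without cont. replicate 2 (0.26) or Atg7-KO replicate 3 (0.02).

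Lysyl oxidases cross-link collagen and elastin. Loxl2 was at 1.89, 5.59 and 3.29 CPM in the cont. livers, 21.2, 19.2 and 30.9 CPM in the Atg7-KO livers and 21.7, 13.6 and 8.58 CPM in the S351A livers and Loxl1 at 1.26, 2.80 and 0.801 CPM in the cont. livers, 8.98, 7.84 and 7.27 CPM in the Atg7-KO livers and 6.84, 4.93 and 9.80 CPM in the S351A livers. For both genes every library with Cre lay above every cont. library. The log2 fold changes were 2.67 (SE 0.38, adjusted p 2.02e-04) and 1.99 (SE 0.44, adjusted p 0.00565) for Loxl2 and 2.50 (SE 0.47, adjusted p 0.00137) and 2.33 (SE 0.56, adjusted p 0.00885) for Loxl1. The S351A call of Loxl2 was lost without S351A replicate 1 (1.56). For Loxl1, the log2 fold changes were 3.13 and 2.95 without cont. replicate 2 and 1.85 and 1.67 without cont. replicate 3. Lox, the founding member, had 0, 1 and 4 counts in cont., 10, 8 and 9 in Atg7-KO and 3, 1 and 0 in S351A and did not pass the filter. With no filter it was called higher in Atg7-KO (3.07) and not in S351A (2.11).

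Genes of matrix breakdown and of its inhibition were higher together. All 4 tested genes were called higher in Atg7-KO and in S351A, beside 19.9% and 15.6% of all genes. With at least 10 counts in every library 2 were called higher in each group. Timp3 (chromosome 10, 86300372 to 86349506, + strand), an inhibitor bound to the matrix, was at 24.6, 16.8 and 12.8 CPM in the cont. livers, 136, 50.6 and 103 CPM in the Atg7-KO livers and 153, 125 and 71.1 CPM in the S351A livers, and Timp2, which also takes part in the activation of pro-MMP2, was at 5.68, 9.44 and 4.00 CPM in the cont. livers, 33.6, 23.5 and 39.1 CPM in the Atg7-KO livers and 52.5, 30.8 and 24.5 CPM in the S351A livers. The lowest library with Cre was above the highest cont. library for both. Timp3 was 5.58-fold higher in Atg7-KO (2.48, SE 0.39, adjusted p 4.55e-04) and 6.71-fold in S351A (2.75, SE 0.41, adjusted p 5.26e-04), and Timp2 had log2 fold changes of 2.42 (SE 0.37, adjusted p 3.35e-04) and 2.59 (SE 0.40, adjusted p 6.36e-04). Of the exon sequence of Timp3, 1733 bases overlap Syn3 on the opposite strand.

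Mmp2, the gelatinase of mesenchymal cells, was at 1.26, 1.75 and 1.96 CPM in the cont. livers, 12.7, 5.70 and 12.7 CPM in the Atg7-KO livers and 9.13, 8.63 and 8.58 CPM in the S351A livers, and Mmp14, the membrane-bound collagenase that activates it, at 25.9, 43.7 and 21.3 CPM in the cont. livers, 97.2, 90.2 and 81.8 CPM in the Atg7-KO livers and 98.1, 121 and 66.2 CPM in the S351A livers. Neither overlapped with cont. in any library with Cre. The log2 fold changes were 2.52 (SE 0.40, adjusted p 4.46e-04) and 2.28 (SE 0.47, adjusted p 0.00400) for Mmp2 and 1.58 (SE 0.29, adjusted p 0.00106) and 1.66 (SE 0.30, adjusted p 0.00171) for Mmp14. Timp1, the soluble inhibitor induced in injured liver, had 0, 0 and 0 counts in cont., 7, 2 and 5 in Atg7-KO and 2, 2 and 0 in S351A and did not pass the filter. Against a floor of 3 counts over the cont. group, its pooled level was 7.83-fold higher in Atg7-KO and 8.35-fold higher in S351A. These folds rest on 14 and 4 counts and make no allowance for their counting error. With no filter it was called higher in both.

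Of the 9 stellate cell and myofibroblast genes, 5 were called higher in Atg7-KO and 5 in S351A (median 1.26 in each), beside 19.9% and 15.6% of all genes. With at least 10 counts in every library 3 were called higher in each group. With total library size 9 were called in Atg7-KO, and without the 20 most counted genes 8. Vim, the intermediate filament vimentin of mesenchymal cells, was at 22.7, 22.7 and 19.4 CPM in the cont. livers, 122, 101 and 123 CPM in the Atg7-KO livers and 115, 61.6 and 76.0 CPM in the S351A livers. It did not overlap with cont. in any library with Cre, and its log2 fold changes were 2.42 (SE 0.24, adjusted p 2.06e-05) and 1.98 (SE 0.25, adjusted p 1.98e-04). Pdgfrb, the PDGF receptor of stellate cells, was at 10.7, 8.74 and 8.27 CPM in the cont. livers, 35.2, 25.7 and 25.9 CPM in the Atg7-KO livers and 25.1, 13.6 and 42.9 CPM in the S351A livers (1.69, SE 0.32, adjusted p 0.00136 and 1.59, SE 0.36, adjusted p 0.00596). Pdgfra, the receptor typical of fibroblasts, was at 5.05, 9.44 and 4.27 CPM in the cont. livers, 17.5, 13.2 and 16.4 CPM in the Atg7-KO livers and 10.3, 12.3 and 20.8 CPM in the S351A livers (1.38, SE 0.35, adjusted p 0.00814 and 1.25, SE 0.41, adjusted p 0.0360). Both receptors were above the cont. range in all 6 libraries. The S351A call of Pdgfra was lost without any 1 library other than cont. replicate 2 and S351A replicate 1 (log2 fold changes 0.88 to 1.33), with sex as a covariate (1.14) and with only the 6 compared libraries in the fit (1.32).

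Des, the muscle-type filament desmin of quiescent and activated stellate cells, was at 14.5, 9.79 and 5.16 CPM in the cont. livers, 23.0, 16.4 and 23.6 CPM in the Atg7-KO livers and 52.5, 33.3 and 22.1 CPM in the S351A livers. It was called higher in Atg7-KO (1.26, SE 0.38, adjusted p 0.0203) and in S351A (2.04, SE 0.41, adjusted p 0.00322), and had the highest log2 value of the 41 genes in S351A against Atg7-KO (0.78, 95% interval -0.04 to 1.60, adjusted p 0.770). The Atg7-KO call was lost without cont. replicate 3 (0.83) or Atg7-KO replicate 1 or 3 (1.16 and 1.14). Tgfb1 (chromosome 7, 25687002 to 25705077, + strand), the ligand that drives collagen synthesis, was at 3.79, 3.50 and 4.89 CPM in the cont. livers, 9.21, 10.7 and 9.09 CPM in the Atg7-KO livers and 13.7, 8.63 and 9.80 CPM in the S351A livers, with all libraries with Cre above the cont. range. Its log2 fold changes were 1.18 (SE 0.30, adjusted p 0.00866) and 1.33 (SE 0.35, adjusted p 0.0140), and the S351A call was lost without S351A replicate 1 (1.10).

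Acta2, Tagln, Lrat and Reln were the 4 genes of this group that were not called. Acta2 (chromosome 19, 34241090 to 34255590, - strand), the smooth muscle actin, was at 11.4, 1.40 and 1.51 CPM in the cont. livers, 9.90, 10.3 and 11.8 CPM in the Atg7-KO livers and 9.13, 14.8 and 1.23 CPM in the S351A livers. The Atg7-KO libraries were close together, but cont. replicate 1 and S351A replicate 3 broke the order, the former with 18 counts and the latter with 1. The log2 fold changes were 1.60 (95% interval 0.05 to 3.15) in Atg7-KO (adjusted p 0.0960) and 1.26 (95% interval -0.60 to 3.12) in S351A (adjusted p 0.294). Without cont. replicate 1 they were 2.79 and 2.45 and both were past the threshold, while without cont. replicate 3 they were 0.94 and 0.60, and without S351A replicate 2 the S351A value was 0.55. In Atg7-KO, Acta2 was also called with limma-voom (2.42), total library size (2.12), library size without the 20 most counted genes (2.02) and no filter (1.54). Tagln, a smooth muscle protein that binds actin, was at 5.05, 5.59 and 5.34 CPM in the cont. livers, 10.8, 6.77 and 9.54 CPM in the Atg7-KO livers and 10.3, 7.40 and 7.35 CPM in the S351A livers, with all libraries with Cre above cont. but log2 fold changes of 0.76 (adjusted p 0.0642) and 0.64 (0.211). It was called higher in Atg7-KO with total library size (1.32), without the 20 most counted genes (1.21) and with limma-voom (0.75), and in S351A with total library size (1.14), and 1241 of its 1988 bases of exon overlap Gm48529 on the opposite strand.

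Lrat, the enzyme that makes retinyl esters, was at 36.0, 22.0 and 13.7 CPM in the cont. livers, 37.5, 18.5 and 44.1 CPM in the Atg7-KO livers and 36.5, 32.1 and 24.5 CPM in the S351A livers, with overlap between all groups. Its log2 fold change was 0.56 (95% interval -0.23 to 1.36) in Atg7-KO and 0.46 (95% interval -0.42 to 1.35) in S351A. With total library size it was called higher in Atg7-KO (1.08). Reln, a secreted glycoprotein of stellate cells, was at 58.1, 69.9 and 30.8 CPM in the cont. livers, 74.6, 87.0 and 85.0 CPM in the Atg7-KO livers and 77.6, 53.0 and 41.7 CPM in the S351A livers. All Atg7-KO values were above the cont. values, by a log2 fold change of 0.65 (95% interval 0.02 to 1.29) (adjusted p 0.0962), and the S351A values overlapped with both groups (0.14, 95% interval -0.53 to 0.82). Reln was called in Atg7-KO with total library size (1.17), without the 20 most counted genes (1.07), with the replicate number as a block (0.72) and without cont. replicate 2 (0.93), and its S351A value turned negative without cont. replicate 3 (-0.17) or S351A replicate 1 (-0.15).

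**Figure D4:**
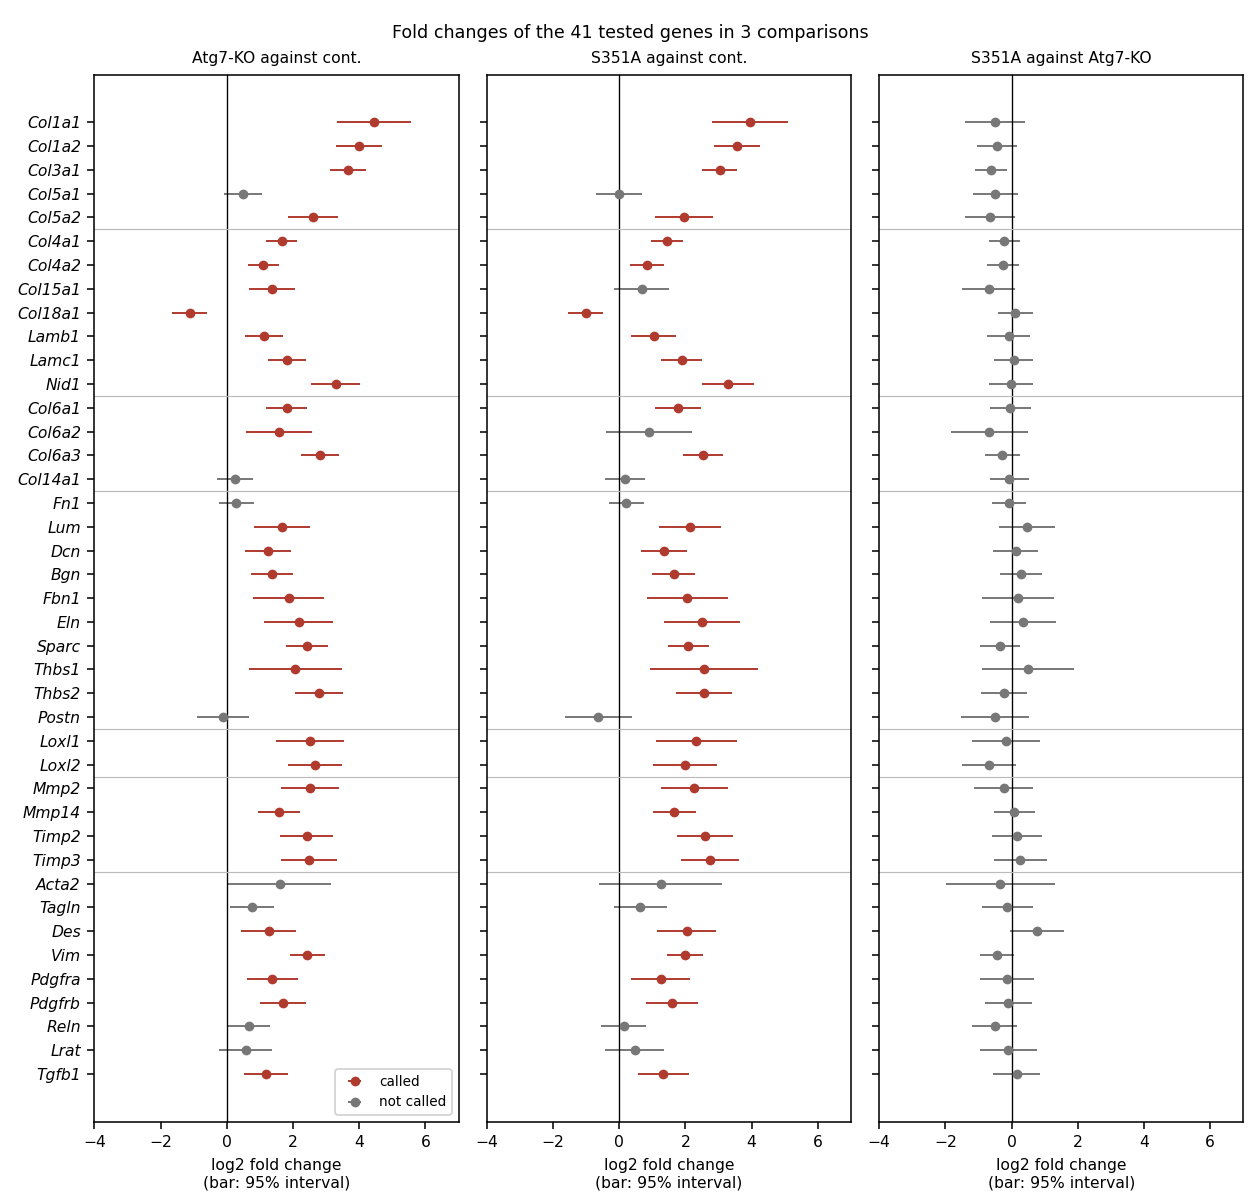
Points are log2 fold changes of the 41 tested genes in 3 comparisons, with 95% intervals as bars and red for genes called at an adjusted p under 0.05 and a fold above 1.5. In the left and middle panels 32 and 30 genes are called on the right of 0 and Col18a1 on the left, and in the right panel none is called.

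The comparison of S351A with Atg7-KO asked what the p62 mutation adds when hepatocytes lack Atg7. No member was called by edgeR's quasi-likelihood test, by DESeq2 or by limma-voom. Over all genes, edgeR called 0% higher and 0.00893% (1 gene) lower, DESeq2 called 21 genes higher and 18 lower, limma-voom called none, and edgeR with no filter called 61 higher and 37 lower. An unadjusted p under 0.05 was reached by Col3a1 alone of the 41 (p 0.0172, adjusted p 0.695), and by 739 of all 11199 genes, a higher share. Of the 41 log2 fold changes, 13 were positive and 28 negative, and the range was -0.69 to 0.78. The 5 fibrillar collagens were all negative, between -0.66 and -0.43, and Col1a2, Col3a1, Col5a2 and Col15a1 were lower in each S351A library than in each Atg7-KO library. Such a separation was seen downward for 9.23% and upward for 7.67% of all genes tested, and for none of the members upward.

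The sizes that these data allow follow from the intervals. Col3a1 differed by a log2 fold change of -0.61 (95% interval -1.10 to -0.13), which did not pass the adjusted threshold. For Col1a1 and Col1a2 the differences were -0.50 (95% interval -1.40 to 0.41) and -0.43 (95% interval -1.04 to 0.18). The lowest values were those of Col15a1, -0.69 (95% interval -1.49 to 0.11), Loxl2, -0.68 (95% interval -1.51 to 0.15), and Col6a2, -0.67 (95% interval -1.84 to 0.49). The highest after Des were Thbs1, 0.50 (95% interval -0.88 to 1.88), and Lum, 0.47 (95% interval -0.38 to 1.32), and Thbs1 turned to -0.19 without S351A replicate 1. The interval of each of the 41 genes reached past a fold of 1.5 in at least 1 direction, and that of 12 in both.

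The other genes of the pathway were counted from lists, in which each gene was tested in the same fit. Of 20 tested genes of collagen processing, 11 passed upward and 2 downward in Atg7-KO (median 0.93), and 7 upward and 3 downward in S351A (median 0.47). The shares of all genes were 19.9% upward and 18.1% downward in Atg7-KO, and 15.6% and 13% in S351A. With at least 10 counts in every library the higher counts were 4 in Atg7-KO and 3 in S351A. The lower count in Atg7-KO was 1 without Atg7-KO replicate 1 or 2, with total library size and without the 20 most counted genes, and 4 with no filter. The lower count in S351A was 0 with total library size or without S351A replicate 2, and 1 without the 20 most counted genes, without any 1 Atg7-KO library or with only the 6 compared libraries. Adamts2, which trims the amino end of procollagen, was at 5.68, 5.24 and 3.47 CPM in the cont. livers, 67.0, 42.4 and 58.2 CPM in the Atg7-KO livers and 82.1, 64.1 and 49.0 CPM in the S351A livers. P3h3, a prolyl hydroxylase of the collagen modifying complex, was at 2.53, 5.94 and 4.71 CPM in the cont. livers, 37.3, 21.4 and 30.9 CPM in the Atg7-KO livers and 34.2, 38.2 and 24.5 CPM in the S351A livers, and Plod2, the lysyl hydroxylase of collagen telopeptides, at 3.16, 2.45 and 1.07 CPM in the cont. livers, 12.9, 7.13 and 9.09 CPM in the Atg7-KO livers and 11.4, 14.8 and 8.58 CPM in the S351A livers. None of these 3 genes overlapped between cont. and either group with Cre. Of 26 genes of TGF-β and PDGF signalling, 16 were called higher in Atg7-KO (median 1.12) and 12 in S351A (median 1.06), beside 19.9% and 15.6% of all genes. With at least 10 counts in every library these counts were 9 and 6. Tgfb2, another TGF-β ligand, was at 1.26, 0.350 and 0.178 CPM in the cont. livers, 17.7, 16.8 and 14.1 CPM in the Atg7-KO livers and 25.1, 7.40 and 2.45 CPM in the S351A livers, Pdgfb, the main PDGF ligand for stellate cells, at 0.631, 0.699 and 0.889 CPM in the cont. livers, 17.0, 13.2 and 12.3 CPM in the Atg7-KO livers and 18.3, 4.93 and 11.0 CPM in the S351A livers, and Ltbp3, which binds latent TGF-β, at 6.31, 6.64 and 3.82 CPM in the cont. livers, 40.1, 34.2 and 29.1 CPM in the Atg7-KO livers and 43.3, 29.6 and 29.4 CPM in the S351A livers. All 3 were called in both groups, and S351A replicate 3 had the lowest Tgfb2 level of the libraries with Cre, from 2 counts.

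Of 25 further collagens and matrix proteins, 14 passed upward and 3 downward in Atg7-KO (median 1.43), and 13 and 2 in S351A, beside 19.9% and 18.1% of all genes in Atg7-KO and 15.6% and 13% in S351A. With no filter 23 were called higher in Atg7-KO, and 21 higher and 4 lower in S351A. With at least 10 counts in every library 5 were called higher in each group. Fbn2, a fibrillin of developing tissue, was at 0.631, 0 and 0.0889 CPM in the cont. livers, 22.6, 9.98 and 16.8 CPM in the Atg7-KO livers and 30.8, 9.86 and 7.35 CPM in the S351A livers. Col8a1, a network-forming collagen, was at 0, 0.699 and 0.0889 CPM in the cont. livers, 7.83, 3.92 and 3.63 CPM in the Atg7-KO livers and 9.13, 6.16 and 2.45 CPM in the S351A livers. Both genes had 0 to 2 counts in each cont. library. Of 26 listed further proteases and inhibitors, 15 were tested. In Atg7-KO 12 were called higher and in S351A 12 (7 with only the 6 compared libraries in the fit), beside 19.9% and 15.6% of all genes. With at least 10 counts in every library 3 were called higher in each group, beside 1175 and 942 of 6887 genes. The medians were 3.07 and 3.13 and stayed so when genes at 0 in cont. were set to a floor of 3 counts over that group. Mmp7, an epithelial metalloproteinase, and Mmp13, the main collagenase of rodents, had no counts in any cont. library. Mmp7 was at 25.6, 14.6 and 31.3 CPM in Atg7-KO and 13.7, 24.7 and 35.5 CPM in S351A, with pooled levels 124-fold and 127-fold higher than a floor of 3 counts over the cont. group. Mmp13 was at 5.99, 6.42 and 7.72 and 2.28, 3.70 and 4.90 CPM, with pooled levels 34.1-fold and 18.8-fold higher than that floor, the latter from 9 counts. The folds of both genes make no allowance for counting error in the groups with Cre. Plat, the tissue plasminogen activator, was at 1.26, 0 and 0 CPM in the cont. livers, 18.2, 14.3 and 15.9 CPM in the Atg7-KO livers and 25.1, 6.16 and 9.80 CPM in the S351A livers. No gene of these 4 lists was called between S351A and Atg7-KO, and 3 of the 86 tested reached an unadjusted p under 0.05, against 739 of all 11199 genes, a higher share.

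Markers of other cell types did not all move with the same groups. Ductular and portal fibroblast sums lay above cont. in both groups with Cre, and the macrophage sum in S351A lay within the cont. range. Of 6 tested ductular genes, 5 were called higher in Atg7-KO and in S351A (median 3.13 and 3.39), beside 19.9% and 15.6% of all genes, and the summed level of the list was 51.0 to 85.9 CPM in the cont. livers, 823 to 1209.8 CPM in Atg7-KO and 722 to 1208 CPM in S351A. Spp1, the gene of the list that held most of the sum in the libraries with Cre, was at 29.0, 29.7 and 45.6 CPM in the cont. livers, 873, 599 and 710.1 CPM in the Atg7-KO livers and 755, 439 and 595 CPM in the S351A livers, and Epcam and Krt19 were at 0 to 1.07 CPM in the cont. livers, 8.18 to 13.8 CPM in the Atg7-KO livers and 8.63 to 19.4 CPM in the S351A livers, and at 0.699 to 3.79 CPM in the cont. livers, 9.62 to 16.6 CPM in the Atg7-KO livers and 11.0 to 24.0 CPM in the S351A livers. Of 14 listed genes of portal fibroblasts and mesothelial cells, 4 were tested, Thy1, Entpd2, Dpt and Cd34. All 4 were called higher in both groups, beside 19.9% and 15.6% of all genes. The count called lower was 0, but 1 in both groups with no filter or without cont. replicate 1 or S351A replicate 1. In Atg7-KO it was also 1 with only the 6 compared libraries or without Atg7-KO replicate 3 or S351A replicate 2 or 3. The sum of the list was 23.7 to 36.0, 73.4 to 106.8 and 80.1 to 97.0 CPM. Dpt was at 6.95, 2.10 and 1.33 CPM in the cont. livers, 36.4, 13.2 and 40.9 CPM in the Atg7-KO livers and 24.0, 23.4 and 38.0 CPM in the S351A livers, Cd34 at 1.26, 1.75 and 0.534 CPM in the cont. livers, 7.60, 5.35 and 10.4 CPM in the Atg7-KO livers and 6.84, 8.63 and 9.80 CPM in the S351A livers and Entpd2 at 7.58, 3.15 and 3.20 CPM in the cont. livers, 28.3, 29.9 and 27.7 CPM in the Atg7-KO livers and 27.4, 14.8 and 22.1 CPM in the S351A livers. Of 12 macrophage genes, 7 passed upward and 1 downward in Atg7-KO, and 6 upward in S351A (0 downward, or 2 with sex as a covariate and 1 with no filter or without cont. replicate 1), beside 19.9% and 18.1% of all genes in Atg7-KO and 15.6% and 13% in S351A, with sums of 233 to 380.4, 385 to 509 and 338 to 366 CPM. Trem2 was at 0.445 to 1.40 CPM in the cont. livers, 14.3 to 17.3 CPM in the Atg7-KO livers and 13.7 to 18.4 CPM in the S351A livers, and Gpnmb had no counts in cont. and 16, 16 and 14 and 8, 4 and 1 counts in the other groups, while Timd4, of resident macrophages, was at 6.95 to 8.63 CPM in the cont. livers, 0.691 to 3.56 CPM in the Atg7-KO livers and 2.47 to 6.13 CPM in the S351A livers. With at least 10 counts in every library, 2 ductular and 4 macrophage genes were called higher in Atg7-KO, and 2 and 3 in S351A. Of the portal fibroblast list 0 were then called higher in either group. The part of these cell types in the collagen levels was not tested.

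Markers of resting stellate cells were called in both directions. In Atg7-KO, 3 of 12 tested genes passed upward and 4 downward (median -0.05), and 4 and 3 in S351A (-0.33), beside 19.9% and 18.1% of all genes in Atg7-KO and 15.6% and 13% in S351A. The summed level overlapped between the groups, at 285 to 598, 289 to 359.8 and 303 to 581 CPM. Colec10, a secreted lectin, was at 20.2, 29.4 and 25.9 CPM in the cont. livers, 0.691, 3.21 and 0.909 CPM in the Atg7-KO livers and 2.28, 2.47 and 3.68 CPM in the S351A livers and was called lower in both groups. Cygb, the globin of stellate cells, was at 6.95, 5.24 and 5.69 CPM in the cont. livers, 47.0, 29.6 and 41.8 CPM in the Atg7-KO livers and 78.7, 33.3 and 30.6 CPM in the S351A livers and was called higher in both. Ntm, a cell adhesion protein, was called lower in Atg7-KO only, at 15.2, 14.3 and 4.00 CPM in the cont. livers, 1.61, 2.14 and 4.09 CPM in the Atg7-KO livers and 5.70, 3.70 and 8.58 CPM in the S351A livers, and that call was lost without cont. replicate 2 (-1.71) or Atg7-KO replicate 1 (-1.75), with total library size and with limma-voom. The summed vascular smooth muscle list also overlapped, at 335 to 487, 283 to 420.1 and 336 to 536 CPM, with Smtn called higher and Tpm2 lower of 4 tested in each group, beside the shares of all genes given for the stellate list. Smtn was at 4.45 to 12 CPM in the cont. livers, 15 to 23.0 CPM in the Atg7-KO livers and 16.0 to 29.7 CPM in the S351A livers, and Tpm2 at 8.84 to 16.1 CPM in the cont. livers, 2.49 to 4.38 CPM in the Atg7-KO livers and 0 to 5.70 CPM in the S351A livers, and the Smtn call was lost without Atg7-KO replicate 1 in that group (1.11) and without S351A replicate 1 in S351A (1.20). The Tpm2 call in S351A was lost without S351A replicate 2 (-2.21), with total library size (-1.58) and without the 20 most counted genes (-1.68). Of 12 genes of sinusoidal endothelium, 2 passed upward and 4 downward in Atg7-KO, beside 19.9% and 18.1% of all genes, with overlapping sums. With total library size this turned to 4 upward and 2 downward, and without the 20 most counted genes the lower count was 2. In S351A 1 passed upward and 2 downward, beside 15.6% and 13% of all genes. The lower count there was 1 under both of these scalings, with at least 10 counts in every library or without S351A replicate 1 or 2. It was 4 without cont. replicate 1 or S351A replicate 3, and 5 with no filter. The higher count in S351A was 2 under both scalings or without cont. replicate 2. In Atg7-KO the higher count was 1 with no filter and when any of cont. replicate 3, Atg7-KO replicates 1 and 3 and S351A replicates 2 and 3 was left out. Lyve1 was at 12.5 to 22.0 CPM in the cont. livers, 53.9 to 85.0 CPM in the Atg7-KO livers and 30.6 to 46.9 CPM in the S351A livers, Oit3 at 12.6 to 18.9 CPM in the cont. livers, 4.28 to 5.76 CPM in the Atg7-KO livers and 2.47 to 7.35 CPM in the S351A livers and Dnase1l3 at 29.7 to 33.9 CPM in the cont. livers, 9.62 to 17.3 CPM in the Atg7-KO livers and 13.6 to 19.6 CPM in the S351A livers.

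**Figure D5:**
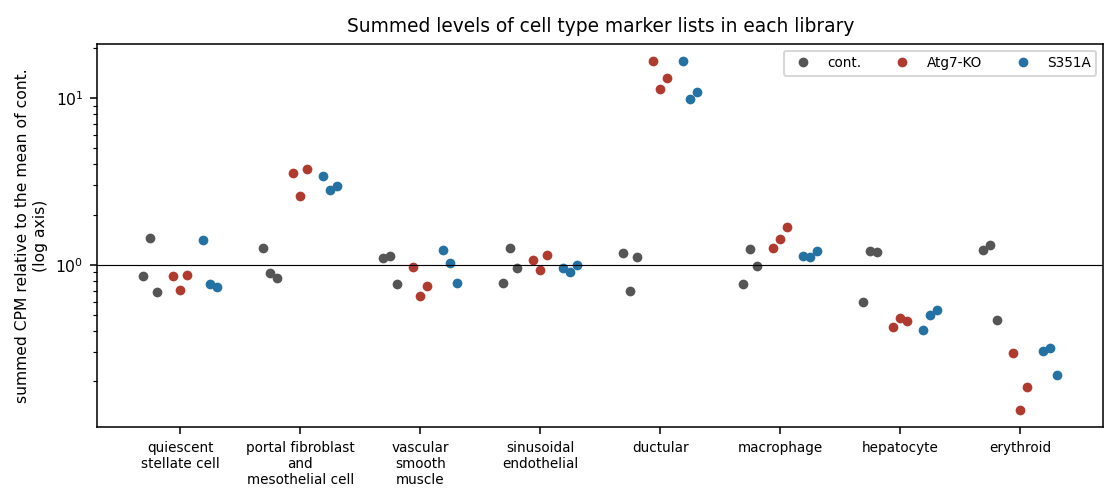
The y axis, on a log scale, is the summed CPM of each marker list relative to the mean of cont., with a point for each of the 9 libraries. Ductular and portal fibroblast lists are above cont. in all 6 libraries with Cre, hepatocyte and erythroid lists are below the cont. mean in them, and resting stellate, smooth muscle and endothelial lists overlap.

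Defining hepatocyte genes were present in all libraries. Of 9 tested, 7 were called lower in Atg7-KO and in S351A, beside 18.1% and 13% of all genes, or 4 in Atg7-KO and 2 in S351A with total library size, and 3 to 4 in S351A without cont. replicate 2 or 3 or S351A replicate 1 or 2, and their summed level was 57421 to 116595 CPM in the cont. livers, 40646 to 46397 CPM in Atg7-KO and 39009 to 51622 CPM in S351A. Serpina1c, a secreted protease inhibitor, was at 4522 to 8808 CPM in the cont. livers, 935 to 1409 CPM in the Atg7-KO livers and 1108 to 1557 CPM in the S351A livers. Cps1, of the urea cycle, was at 621 to 1653 CPM in the cont. livers, 252 to 367 CPM in the Atg7-KO livers and 171 to 458 CPM in the S351A livers, and Ttr, a plasma carrier, at 5117 to 11161 CPM in the cont. livers, 2769 to 3569 CPM in the Atg7-KO livers and 2897 to 4609 CPM in the S351A livers. Of 3 tested erythroid genes, 2 were called lower in Atg7-KO and in S351A, beside 18.1% and 13% of all genes, and 4 with no filter in both and without cont. replicate 3 in Atg7-KO. The sums of that list were 320.0 to 893, 92.3 to 203 and 149 to 216 CPM. Alas2, the first enzyme of red cell haem synthesis, was at 44.4 to 189 CPM in the cont. livers, 8.55 to 13.4 CPM in the Atg7-KO livers and 17.3 to 28.5 CPM in the S351A livers, and Hba-a2, a globin, at 203 to 752 CPM in the cont. livers, 82.7 to 171 CPM in the Atg7-KO livers and 125 to 175 CPM in the S351A livers. Such levels enter the library totals, and total library size in place of TMM shifted the median over all genes by a log2 value of 0.545 for Atg7-KO and 0.493 for S351A. The median of the 41 genes was then 2.24 and 2.28.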

How the data were processed

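Poly(A) RNA of 9 mouse livers had been sequenced as single-end reads, trimmed with Trim Galore, mapped to mm10 with STAR and counted with RSEM by the authors. The versions, the annotation and the strand setting are not given in the sources used here. The deposited values are expected counts, estimated reads per gene that need not be whole, and were rounded. Groups and replicate numbers came from the titles. No label pairs the livers. In S351A against cont. all 3 correlations of same-numbered deviations were above 0.1 (0.160 to 0.235). Differently numbered pairs over the 3 comparisons reached 0.212, and the numbers were not taken as pairs in the main fit. Replicate 1 was male and replicate 2 female in every group, by Xist and Y-linked genes. Totals per library were 713835 to 15426566 counts, so that a gene with 3 counts was at 0.267 to 3.70 CPM. Intervals cover the spread between libraries as fitted, floors cover counting error in cont. only, and reads are not independent molecules.

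Testing used edgeR 4.0.16 (R 4.3.3). After filterByExpr (minimum count 10, minimum total 15), 11199 genes remained, TMM factors scaled the libraries, and all 9 libraries entered 1 quasi-likelihood model of the 3 groups. P-values were adjusted by Benjamini-Hochberg over all genes tested, two-sided, and a gene was called at an adjusted p under 0.05 and a fold above 1.5. The 3 pairs of groups were compared. An F test over the 3 groups called 33 of the 41 genes at an adjusted p under 0.05 (35.1% of all genes). The SE was the size of the log2 fold change divided by the square root of the test's F statistic. The 95% intervals used a median of 12.3 degrees of freedom for all genes, so they need not match each p-value. Since only the labels tell the livers apart, p-values measure the spread between these samples. The steps were tested on simulated counts. Alternatives changed the tool (DESeq2 1.42.0 or limma-voom from limma 3.58.1), the scaling (RLE, totals, or totals without the 20 most counted genes), the filter (none, or 10 counts in each library) and the model (6 libraries, replicate block, sex), the thresholds and the prior count (0.5), or left out 1 library each. Positions and exon lengths are from GENCODE M21 for mm10 and promoter windows from RefSeq.

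The 44 genes and all lists were chosen with earlier results of these data known. Values in every library were given for up to 4 called genes per role group with the largest log2 fold change in Atg7-KO against cont., for genes against the direction of their group and for Acta2, Tgfb1, Col1a1, Lrat and Reln, and up to 3 genes with at least 5 CPM were named per other list. One gene that this rule names is not reported here. Members outside this rule were named to account for all 44. In S351A against Atg7-KO, values were given for the 3 highest and 3 lowest members and for Col1a1, Col1a2 and Col3a1.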

Additional observations from a re-analysis of the deposited data

How the results depend on the processing

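The number of members called higher in Atg7-KO against cont. stayed between 28 and 39 under all alternatives but one. With at least 10 counts in every library, where only 20 members could be tested, it was 15, and so was the number in S351A against cont., while the F test called 16. The member called lower, Col18a1, was lost with total library size in both comparisons (0 called), and in S351A also without the 20 most counted genes and with only the 6 compared libraries (0 called). The median of members moved from 1.67 to 2.24 with total library size and to 2.12 without the 20 most counted genes in Atg7-KO against cont., and from 1.78 to 2.28 and 2.18 in S351A against cont. These scalings shifted the median of all genes by 0.545 and 0.435 in the former comparison and by 0.493 and 0.394 in the latter. In the fits that left out 1 library, members called higher numbered 28 to 33 in Atg7-KO and 24 to 30 in S351A, and the lowest counts came without replicate 1 of the group compared with cont.

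No member was called between S351A and Atg7-KO under any alternative. Directions turned for Postn in Atg7-KO against cont. (0.43 with total library size, 0.32 without the 20 most counted genes), for Col5a1 in S351A against cont., which was near 0 (-0.11 with no filter, -0.037 with limma-voom, -0.027 with the replicate block), and when 1 library was left out. In those fits Postn ranged from -0.31 to 0.26, Thbs1 in S351A against Atg7-KO from -0.19 to 0.86, and in S351A against cont. Col14a1 from -0.049 to 0.37, Col5a1 from -0.26 to 0.28 and Reln from -0.17 to 0.42. Of 41 members, 28 kept their call and direction in Atg7-KO against cont. and 26 in S351A against cont. under each alternative that tested them (17 to 19 per member, since the stricter filter tested 20 members and the fit of only the S351A and cont. libraries 36). The cause of the changes was not tested.

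Same-numbered deviations correlated at 0.160 to 0.235 in S351A against cont. and at 0.25, 0.09 and -0.04 in Atg7-KO against cont. In S351A against Atg7-KO they correlated at 0.31, 0.07 and 0.09. Other pairs were between -0.26 and 0.21. With the replicate block, 33 members were called higher in Atg7-KO and 30 in S351A against cont., and Reln in Atg7-KO was the member whose call changed. The block changed no member's call in S351A against cont. In S351A, totals of at most 792366 counts limit the genes at a few counts per library, such as Col6a2, Fbn1, Thbs1, Lox and Timp1.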
